A study of Mus musculus with 20 samples.

Results

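The effect of an anti-CD8 antibody given alone was examined in 4 of the 20 libraries of the series, chosen by their treatment label: libraries A and B of anti-CD8 tumors, and libraries A and B of control tumors. All 4 were made from RNA of SCCVII tumors, a mouse squamous carcinoma line used as a model of head and neck (H&N) cancer, growing under the skin of C3H/HeOuJ mice whose immune system was intact. The remaining 16 libraries, in 8 groups of 2, came from mice given APG-157 (a turmeric-derived drug containing curcumin), anti-PD-1, anti-CTLA-4 or combinations of these, and 1 of those groups also received anti-CD8. The study used the antibody to ask whether the response to APG-157 with anti-CTLA-4 needs CD8+ T cells, and the comparison with control shows what the tumor RNA looked like after the antibody without any drug. The anti-CD8 antibody was injected into the peritoneal cavity; its clone and dose, and the age of the mice, are not given in the sources used here. Controls of the depletion experiment were given IgG and those of the drug experiment saline, and the label "control" does not say which of these the RNA libraries belong to. Neither the labels nor the methods state that libraries A and B of a group came from different tumors, so every p-value below describes the spread between libraries, which may be technical.

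CD8 is the coreceptor with which cytotoxic T cells bind MHC class I while their T cell receptor reads the peptide it presents. Activated cytotoxic T cells kill through perforin and granzymes and release interferon gamma (IFN-γ). IFN-γ raises, in part through the transcription factor IRF1, chemokines, guanylate-binding proteins, MHC class I and, through the coactivator CIITA, MHC class II. CD4+ T cells, gamma-delta T cells and natural killer (NK) cells also make IFN-γ, and a subset of dendritic cells carries the CD8 alpha chain.

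Levels are CPM, the estimated counts of a gene per 1000000 counts of its library, with library sizes adjusted by TMM. The anti-CD8 libraries held 54674853 and 72081922 counts, and the control libraries 55071855 and 52069983, where the smallest of the 20 libraries held 43920525. The labels describe the material as head and neck cancer cells. In the 4 libraries the simple-epithelium keratins Krt8 and Krt18 were at 748 to 1176 CPM, whereas the basal squamous keratins Krt5 and Krt14 did not exceed 1.68 CPM. The tumors also contained RNA of other tissues. The sum of 36 skeletal muscle genes was 1974 CPM in anti-CD8 library A and 316 CPM in anti-CD8 library B, against 335 and 421 CPM in control libraries A and B. Hemoglobin and other red blood cell genes summed to 167 and 102 CPM in the anti-CD8 libraries, against 147 and 914 CPM in the control libraries. The part of these tissues in the results that follow was not tested, except that a fit with the muscle level as a covariate was run.

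Calls come from edgeR's quasi-likelihood test, with 1 fit over the whole series of 20 libraries, and needed a log2 fold change beyond 2 in either direction together with a p below 0.05 after Benjamini-Hochberg adjustment. Of 19567 genes tested, 0 were called (0.0%), and the lowest adjusted p was 1.00. At an unadjusted p under 0.05, 170 genes were lower with anti-CD8 (0.869%) and 63 were higher (0.322%). DESeq2, fitted to the same libraries, called 8 genes (0.0409%), of which Cd8a was 1. The spread used by edgeR is shared by all groups. Its measure is the biological coefficient of variation, the relative spread of a gene's true level between libraries. It was 38.7% over the series, 25.4% between the anti-CD8 libraries and 23.5% between the control libraries. Elsewhere it ran from 4.23% for APG-157 plus anti-CTLA-4 to 68.3% when anti-CD8 was added to these 2. The shared value thus exceeded that of either compared group. In the 20-library fit 233 of 19567 genes had an unadjusted p under 0.05, fewer than chance alone would give at that threshold. The lack of calls in that fit therefore does not show that the groups were alike. When edgeR was fitted to the 4 compared libraries alone, 11 of 17037 genes were called, all lower with anti-CD8 (0.0646%). These 11 were Cd8a, the MHC class II genes H2-Aa, H2-Ab1, H2-Eb1, H2-Ea-ps and Cd74, their coactivator Ciita, the IFN-γ-induced genes Cxcl9, Iigp1 and Gbp8, and Gm14288. H2-Eb1 and Gbp8 were named after their values were seen. Log2 fold changes and unadjusted p-values below come from the fit to 20 libraries unless the 4-library fit is named.

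RNA of the antibody's target was close to absent from the anti-CD8 libraries. Cd8a (ENSMUSG00000053977.14), the CD8 alpha chain, had 8 and 9 counts in anti-CD8 libraries A and B, against 315 and 343 counts in control libraries A and B. This is 0.144 and 0.121 CPM with anti-CD8, against 5.66 and 6.67 CPM in control, a 46.6-fold lower mean. The log2 fold change was −5.53 (SE 1.62, unadjusted p = 0.0051, adjusted p = 1.00 in edgeR's quasi-likelihood test). Cd8a had an adjusted p of 0.0373 in DESeq2 and of 0.0179 in edgeR on the 4 libraries alone. Cd8b1 (ENSMUSG00000053044.9), the CD8 beta chain, was at 0.215 and 0.107 CPM with anti-CD8, against 2.30 and 3.11 CPM in control (log2 fold change −4.07, SE 1.31, unadjusted p = 0.0088 in edgeR's quasi-likelihood test). Its adjusted p was 0.238 in DESeq2 on the 20 libraries and 0.0834 in edgeR on the 4 libraries alone, so it passed neither. The groups did not overlap for either chain. In bulk RNA, fewer CD8+ cells and less CD8 RNA per cell cannot be told apart. By tissue staining, the study did not see CD8+ T cells in tumors given the antibody and judged the depletion effective. Its flow cytometry covered all groups of the depletion experiment, including those given APG-157 with anti-CTLA-4, and reported CD8+ T cell changes. Apart from these it found no significant change in tumor CD4+ T cells, dendritic cells, macrophages or neutrophils. Those are measurements of protein, and whether the same tumors gave the RNA is not stated.

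Cd4, the coreceptor of helper T cells, is not bound by the antibody. It was at 1.24 and 1.56 CPM with anti-CD8, against 2.85 and 2.63 CPM in control (log2 fold change −0.97, SE 0.99, unadjusted p = 0.35 in edgeR's quasi-likelihood test). The CD8 chains therefore made up a smaller part of the coreceptor RNA. Cd8a and Cd8b1 gave 20 of 89 coreceptor counts in anti-CD8 library A (22.5%, 95% Wilson interval 15.04% to 32.2%) and 17 of 133 in library B (12.8%, 8.14% to 19.5%). In control they gave 443 of 602 counts in library A (73.6%, 69.9% to 77.0%) and 503 of 638 in library B (78.8%, 75.5% to 81.8%). The intervals cover counting error only, and those of the 2 groups were far apart. The mean share was 17.6% ± 6.85 with anti-CD8 and 76.2% ± 3.71 in control (SD, n = 2 each), a difference of −58.6 percentage points. The exact two-sided permutation test of this difference gave p = 0.333, the smallest p that 2 libraries against 2 can give.

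The other group given anti-CD8, together with APG-157 and anti-CTLA-4, had similarly little CD8 RNA. Its Cd8a levels were 0.260 and 0.381 CPM, and its CD8 shares 9.91% and 11.7%. Among the 14 libraries that received neither anti-CD8 nor the control treatment, Cd8a ranged between 0.608 and 56.7 CPM with a median of 11.9 CPM. The 4 libraries of mice given anti-CD8 thus had the lowest summed CD8 level of the 20. The CD8 share was less exclusive: APG-157 library B, from a mouse given no anti-CD8, had a share of 21.6%, just under that of anti-CD8 library A.

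**Figure D1:**
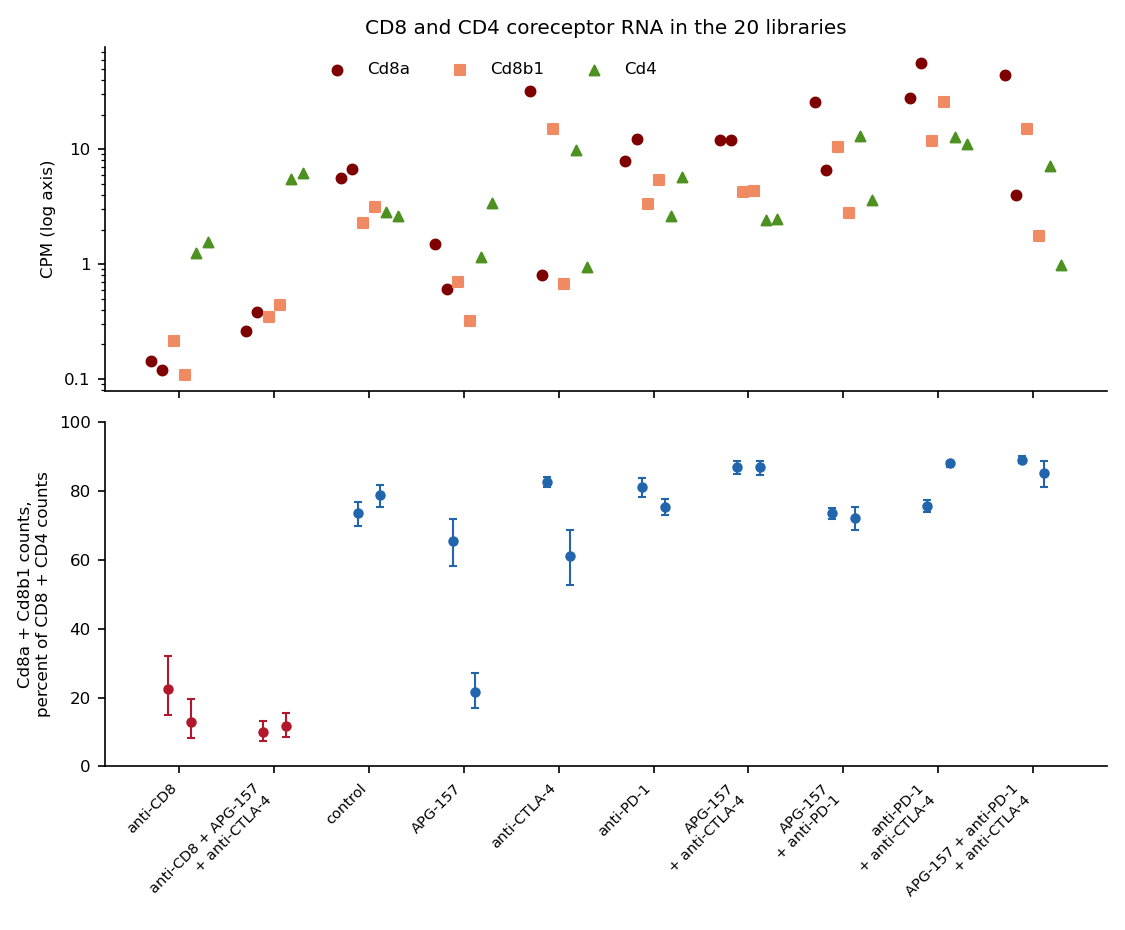
CD8 and CD4 coreceptor RNA in the 20 libraries, by treatment group with library A left of library B. The upper panel shows CPM on a log axis for Cd8a, Cd8b1 and Cd4; the lower panel shows Cd8a plus Cd8b1 counts as a percentage of CD8 plus CD4 counts, with 95% Wilson intervals, in red for libraries of mice given anti-CD8 and in blue for the others. Both anti-CD8 libraries lie at or below 0.215 CPM for either CD8 chain, and both control libraries at or above 2.30 CPM.

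RNA of the T cell receptor and its signaling chain was lower as a group with anti-CD8. All 24 listed genes were tested and had a negative log2 fold change, where 10370 of all 19567 tested genes did, and their median was −1.15 against −0.02 over all genes. In 21 of the 24 both anti-CD8 libraries lay below both control libraries, which held for 19.1% of all genes. Cd3e, a signaling chain of the receptor complex, was at 1.00 and 1.38 CPM with anti-CD8, against 4.56 and 7.91 CPM in control (log2 fold change −2.38, SE 1.23). Cd3g, its partner chain, was at 1.35 and 1.68 CPM against 5.66 and 7.51 CPM, and Cd3d at 0.610 and 0.403 CPM against 1.67 and 2.92 CPM. The groups did not overlap for these chains.

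Of the 24 members, 2 had an unadjusted p under 0.05 in edgeR's quasi-likelihood test, Trbc1 and Themis (0.869% lower over all genes), and 0 were called. Trbc1, a constant region of the receptor beta chain, was at 0.969 and 1.52 CPM with anti-CD8, against 4.15 and 4.84 CPM in control (log2 fold change −1.85, SE 0.68, unadjusted p = 0.017 in edgeR). Themis, needed for T cell selection in the thymus, had 6 and 5 counts against 53 and 33 counts (log2 fold change −3.17, SE 1.32, unadjusted p = 0.032 in edgeR). The alpha chain constant region Trac was at 1.58 and 1.73 CPM against 5.33 and 6.44 CPM. Its beta chain counterpart Trbc2, nearly identical to Trbc1 so that reads can be split between them, had higher levels than Trbc1. For Trbc2 the groups overlapped, at 17.9 and 27.6 CPM with anti-CD8 against 25.6 and 40.0 CPM in control (log2 fold change −0.53). The variable segments of the alpha and beta chains summed to 0.574 and 0.524 CPM with anti-CD8, against 2.93 and 3.36 CPM in control. These sums were the lowest of the 20 libraries, and the next was 0.586 CPM.

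Of the other receptor and signaling genes, Sh2d1a (log2 fold change −2.02), Cd27 (−2.00), Bcl11b (−1.40), Zap70 (−1.39), Cd247 (−1.35), Lat (−1.20), Cd2 (−1.09) and Lck (−1.01) had means that were at least 2.02-fold lower with anti-CD8. Cd6 (−0.95), Cd5 (−0.90), Skap1 (−0.83), Cd28 (−0.78), Icos (−0.76), Lcp2 (−0.45) and Lef1 (−0.41) were lower in both libraries by smaller factors. Thy1, which fibroblasts also carry, and Tcf7 overlapped: Thy1 was at 20.4 and 16.4 CPM with anti-CD8 against 11.3 and 29.0 CPM, and Tcf7 at 5.92 and 9.47 CPM against 7.90 and 9.51 CPM.

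Inhibitory receptors and exhaustion genes, which mark T cells under prolonged stimulation, had negative log2 fold changes in 12 of 13 members, with a median of −0.89. None passed an unadjusted p of 0.05, and the groups did not overlap, with anti-CD8 lower, in 11 members (19.1% over all genes). Pdcd1, which encodes PD-1, was at 0.467 and 0.766 CPM with anti-CD8, against 3.72 and 4.26 CPM in control (log2 fold change −2.68, SE 1.39, unadjusted p = 0.076 in edgeR). Tox, a transcription factor of exhausted T cells, was at 0.467 and 0.551 CPM against 2.03 and 2.66 CPM. Cxcr6, a chemokine receptor of T cells resident in tissue, was at 1.53 and 1.69 CPM against 5.40 and 7.86 CPM (log2 fold change −2.04, SE 0.96, unadjusted p = 0.053 in edgeR). The groups were apart for all 3 genes. Members with the highest levels, which myeloid cells also express, differed less: Havcr2 was at 24.5 and 35.6 CPM against 45.3 and 41.9 CPM, and Entpd1 at 76.6 and 94.2 CPM against 112 and 93.9 CPM.

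Markers of the other T cell classes mostly had negative log2 fold changes. Of 9 tested CD4 helper genes, 7 were negative and 2 positive, with a median of −0.18. Both anti-CD8 libraries were lower in 4 (19.1% over all genes) and higher in 1 (12.9%). The gamma-delta list had 4 negative and 2 positive of 6 tested members, with a median of −0.86. Both libraries were lower in 2 (19.1%) and higher in 0. The list summed to 2.26 and 2.22 CPM with anti-CD8, against 2.84 and 7.33 CPM in control. Foxp3, the defining factor of regulatory T cells, was at 0.861 and 1.13 CPM with anti-CD8, against 1.56 and 2.28 CPM in control (log2 fold change −0.94, SE 0.51, unadjusted p = 0.088 in edgeR). The regulatory T cell list had 10 of 11 negative members with a median of −0.68, and 5 members in which both anti-CD8 libraries were lower (19.1% over all genes). Its members Ctla4 (0.484 and 0.766 CPM against 1.29 and 1.03 CPM) and Ikzf4 (0.269 and 0.551 CPM against 1.04 and 1.09 CPM) did not overlap. The gamma-delta constant region Trdc overlapped, at 0.646 and 1.10 CPM against 0.592 and 1.05 CPM. Tcrg-C2, a gamma chain constant region whose relatives can share its reads, had 0 and 4 counts with anti-CD8 against 26 and 183 in control (log2 fold change −5.99, unadjusted p = 0.014 in edgeR). Its groups did not overlap, and the control libraries also lay apart, at 0.467 and 3.56 CPM.

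Cytotoxic effector genes did not move as 1 group. Of 24 members, 18 had a negative and 6 a positive log2 fold change, with a median of −0.52, and 0 had an unadjusted p under 0.05 in edgeR. In 12 members both anti-CD8 libraries were lower (19.1% over all genes) and in 1 both were higher (12.9% over all genes). Lower in both were Nkg7, a granule protein of killer cells (1.54 and 2.11 CPM with anti-CD8, against 3.36 and 7.12 CPM in control), and Klrk1, the activating receptor NKG2D (3.19 and 3.86 CPM against 8.85 and 9.63 CPM). Ifng itself was near the limit of detection, with 1 and 13 counts against 31 and 22 counts (log2 fold change −2.27, SE 1.58). Gzmk, a granzyme of memory-like CD8+ T cells, had 0 and 8 counts against 31 and 39 counts.

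The other granzymes differed among themselves and, except for Gzma, overlapped between the groups. Gzma, shared with NK cells, was at 3.19 and 3.99 CPM with anti-CD8, against 1.29 and 2.49 CPM in control, above both control libraries (log2 fold change 0.93, SE 0.67, unadjusted p = 0.19 in edgeR). Gzmb, at 3.71 and 7.64 CPM against 3.07 and 5.02 CPM, and the pore-forming Prf1, at 2.30 and 6.00 CPM against 2.78 and 6.24 CPM, overlapped. Gzmc, at 11.0 and 33.8 CPM against 2.59 and 14.4 CPM, was higher in library B than in library A of both groups. The same held for Gzmd, Gzme, Gzmf and Gzmg, neighbours of close sequence to Gzmc between which reads can be split, whose levels ran between 0.897 and 8.73 CPM with anti-CD8 and between 0.0718 and 11.0 CPM in control. Their log2 fold changes were 0.05 for Gzmd, 0.23 for Gzme, −1.04 for Gzmf and −0.37 for Gzmg. Gzmm, Eomes, Xcl1 and Ccl5 also overlapped between the groups. Ccl3 (log2 fold change −1.39), Klrd1 (−1.25), Tbx21 (−1.02), Crtam (−0.96), Fasl (−0.88), Ctsw (−0.68), Ccl4 (−0.66) and Cst7 (−0.30) were lower in both libraries without passing the test.

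NK cell markers were split, with 8 negative and 8 positive log2 fold changes among 16 tested members and a median of −0.09. Both anti-CD8 libraries were lower in 4 of the 16 (19.1% over all genes) and higher in 1 (12.9% over all genes). Ncr1, the defining NK receptor NKp46, was at 2.39 and 3.64 CPM with anti-CD8, against 1.44 and 3.60 CPM in control, so the groups overlapped. The members lower in both libraries included the lectin receptors Klrc1 (1.20 and 1.67 CPM against 2.91 and 4.82 CPM), Klrc2 (0.287 and 0.3896 CPM against 0.880 and 1.75 CPM) and Klre1 (0.664 and 0.846 CPM against 1.13 and 1.75 CPM), of which Klrc1 is also carried by activated CD8+ T cells.

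**Figure D2:**
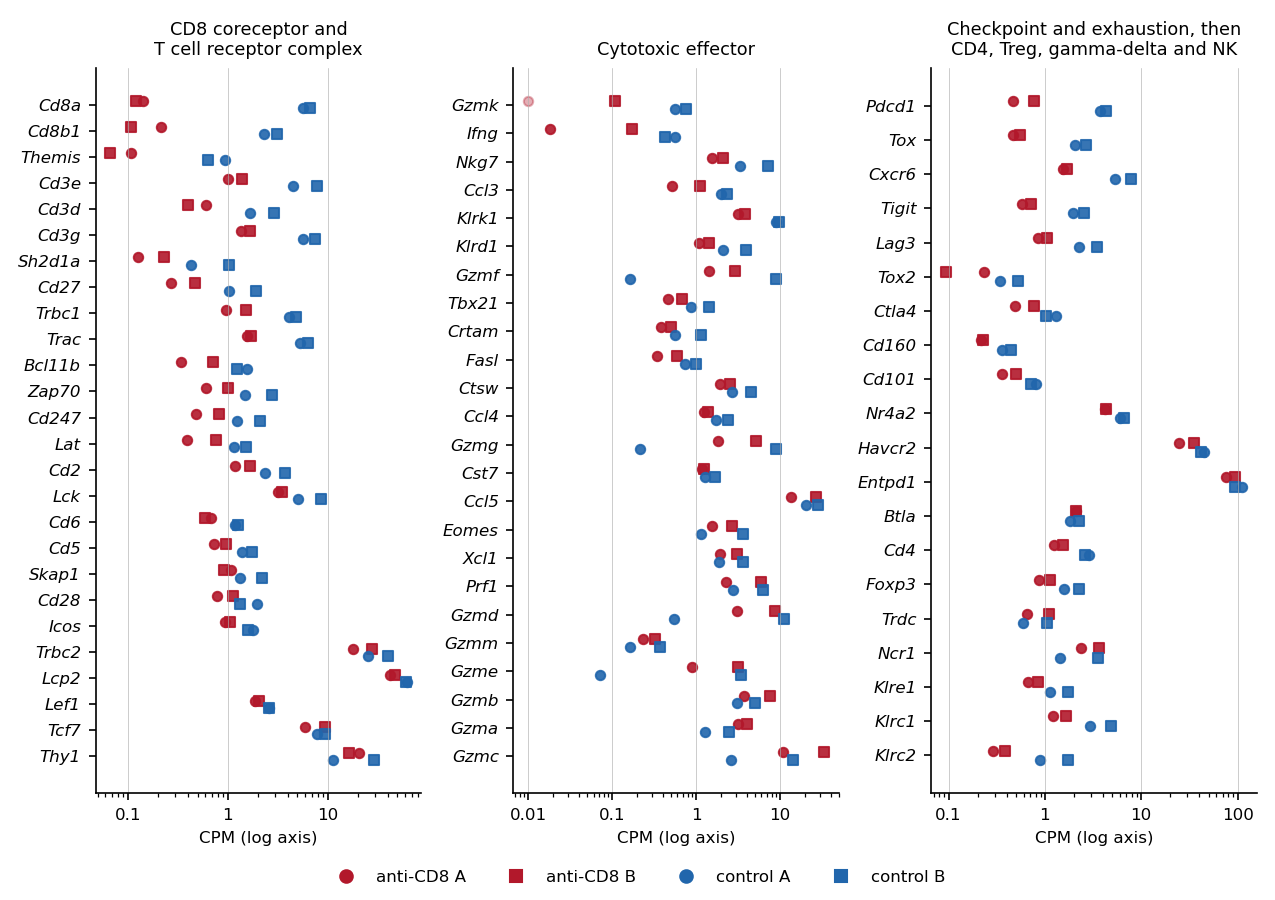
CPM on a log axis for T cell and NK cell genes in anti-CD8 libraries A and B (red circle and square, upper in each row) and control libraries A and B (blue circle and square, lower). Genes are ordered by log2 fold change within the coreceptor and T cell receptor, cytotoxic and checkpoint lists, and a level of 0 is drawn as a pale point at 0.01 CPM. Red lies left of blue for 21 of the 24 T cell receptor genes (19.1% over all genes), whereas the granzymes other than Gzmk lie among each other or higher with anti-CD8.

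IFN-γ-induced genes were lower with anti-CD8 throughout the list, and those of type I interferon were not. All 24 genes of the IFN-γ list had a negative log2 fold change (10370 of 19567 over all genes), with a median of −0.95, and in 23 of them both anti-CD8 libraries lay below both control libraries (19.1% over all genes). The list summed to 557 and 565 CPM with anti-CD8, against 1109 and 1165 CPM in control. None of its members had an unadjusted p under 0.05 in the 20-library fit. Of the 24 type I interferon genes, 7 had a negative and 17 a positive log2 fold change, with a median of 0.17. In 9 of them both anti-CD8 libraries were higher (12.9% over all genes) and in 4 both were lower (19.1% over all genes). Their sums were 680 and 679 CPM with anti-CD8 against 645 and 675 CPM in control.

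Both interferons act on short promoter elements. The gamma-activated site (GAS) takes part in the response to IFN-γ, and factors of the IRF family bind the interferon-stimulated response element (ISRE). MHC class II promoters instead carry an X and a Y box on which CIITA assembles. The 120 bases before the start of 6 genes are shown to set these elements beside the levels, with matches in capitals. These 6 were picked as examples that carry the element, so their matches are not a result. Sequences are from RefSeq on GRCm38.p6, written 5′ to 3′ along the strand of the gene. Irf1, Tgtp2 and Gbp2 come from the IFN-γ list, Isg15 from the type I list, and H2-Aa and H2-Eb1 from the MHC class II list. The stretches lie at chr11:53769894-53770013 (plus strand, Irf1), chr11:49064213-49064332 (minus, Tgtp2), chr3:142620543-142620662 (plus, Gbp2), chr4:156200819-156200938 (minus, Isg15), chr17:34287824-34287943 (minus, H2-Aa) and chr17:34305747-34305866 (plus, H2-Eb1).
Irf1: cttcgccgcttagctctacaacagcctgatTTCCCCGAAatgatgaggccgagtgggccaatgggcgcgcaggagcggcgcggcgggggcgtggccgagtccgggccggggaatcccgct
Tgtp2: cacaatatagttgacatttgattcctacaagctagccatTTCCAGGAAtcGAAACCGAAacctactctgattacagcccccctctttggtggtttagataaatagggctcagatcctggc
Gbp2: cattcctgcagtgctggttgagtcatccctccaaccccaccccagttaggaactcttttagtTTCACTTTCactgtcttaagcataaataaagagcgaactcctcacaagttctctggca
Isg15: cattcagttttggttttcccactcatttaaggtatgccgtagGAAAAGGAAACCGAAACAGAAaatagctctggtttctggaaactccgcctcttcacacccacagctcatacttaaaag
H2-Aa: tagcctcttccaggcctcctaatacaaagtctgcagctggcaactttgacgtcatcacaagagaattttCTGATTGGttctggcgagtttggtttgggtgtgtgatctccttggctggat
H2-Eb1: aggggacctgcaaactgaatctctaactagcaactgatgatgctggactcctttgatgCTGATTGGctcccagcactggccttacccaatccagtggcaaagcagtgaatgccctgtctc
The capitals mark a GAS (TTCNNNGAA) in Irf1, a GAS followed by an ISRE core (GAAANNGAA) in Tgtp2, 1 ISRE core on the opposite strand in Gbp2, 3 overlapping ISRE cores in Isg15, and a Y box (CTGATTGG) in H2-Aa and H2-Eb1. Both strands of the 250 bases before each start were searched in 27025 genes. A GAS was found in 8 of 17 matched IFN-γ genes, 3 of 16 type I genes and 8.13% of all genes. An ISRE core was found in 13 of 17, 9 of 16 and 8.18% of all genes, and a Y box in 4 of 9 MHC class II genes, 6 of 15 MHC class I genes, 3 of 17 IFN-γ genes and 4.43% of all genes. A match is a string of letters, not a measured binding site.

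Irf1, the transcription factor whose promoter holds the GAS, was at 86.4 and 91.5 CPM with anti-CD8, against 138 and 153 CPM in control (log2 fold change −0.71, SE 0.49). Libraries of 1 group were close together and the groups apart. Among IFN-γ-induced genes, Iigp1, a GTPase of defence against vacuolar pathogens, was at 23.2 and 23.6 CPM with anti-CD8, against 93.8 and 118 CPM in control (log2 fold change −2.17, SE 1.05, unadjusted p = 0.060 in edgeR, adjusted p = 0.0179 in edgeR on the 4 libraries). Cxcl9, a chemokine that draws CXCR3+ T cells, was at 14.4 and 16.4 CPM against 77.7 and 63.7 CPM (log2 fold change −2.20, SE 1.27, unadjusted p = 0.11 in edgeR, adjusted p = 0.0205 in edgeR on the 4 libraries). Tgtp2, whose near-identical copy Tgtp1 can share its reads, was at 16.5 and 15.4 CPM against 48.7 and 66.2 CPM, and Gbp2, a guanylate-binding protein, at 63.4 and 56.5 CPM against 110 and 101 CPM. The type I gene Isg15, a ubiquitin-like modifier, overlapped at 15.5 and 16.1 CPM against 15.8 and 19.7 CPM. Rsad2, the antiviral enzyme viperin, was at 18.9 and 19.6 CPM with anti-CD8, above the 12.5 and 14.0 CPM in control (log2 fold change 0.54, SE 0.47). Within the type I list Zbp1, a sensor of nucleic acid, went the other way, at 32.2 and 33.0 CPM against 48.5 and 53.6 CPM, while Ifi27l2a was at 47.1 and 51.8 CPM against 31.3 and 43.2 CPM.

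After CD8, MHC class II genes had the most negative median of the immune lists shown. Of 12 members, 11 had a negative log2 fold change with a median of −1.88, both anti-CD8 libraries were lower in 10 (19.1% over all genes), and 2 had an unadjusted p under 0.05 in edgeR (0.869% over all genes). H2-Aa, the I-A alpha chain, was at 70.1 and 94.99 CPM with anti-CD8, against 540 and 846 CPM in control (log2 fold change −3.07, SE 1.37, unadjusted p = 0.045 in edgeR, adjusted p = 0.0418 in edgeR on the 4 libraries). Cd74, the invariant chain that guides class II molecules to the endosome, was at 152 and 218 CPM against 1222 and 1835 CPM (log2 fold change −3.05, SE 1.32, unadjusted p = 0.040 in edgeR, adjusted p = 0.0422 in edgeR on the 4 libraries). The groups were widely separated for both. H2-Ab1, the I-A beta chain, was at 31.9 and 41.6 CPM against 217 and 315 CPM, and H2-Eb1, the I-E beta chain, at 42.7 and 54.8 CPM against 291 and 363 CPM. H2-Ea-ps, the I-E alpha chain gene that the annotation names a pseudogene, was at 32.6 and 40.3 CPM against 235 and 295 CPM (log2 fold change −2.86, SE 1.28, unadjusted p = 0.045 in edgeR). Ciita was at 4.70 and 4.35 CPM with anti-CD8, against 26.4 and 24.0 CPM in control (log2 fold change −2.48, SE 1.14, unadjusted p = 0.051 in edgeR, adjusted p = 0.0179 in edgeR on the 4 libraries). Ctss, the protease that trims the invariant chain, was at 561 and 934 CPM against 1109 and 1221 CPM.

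MHC class I genes were lower by less. All 16 had a negative log2 fold change with a median of −0.58, and both anti-CD8 libraries were lower in 15 (19.1% over all genes), with 0 at an unadjusted p under 0.05 in edgeR. The heavy chain H2-K1 was at 1275 and 1531 CPM with anti-CD8, against 2082 and 2173 CPM in control, and the light chain B2m at 1636 and 2051 CPM against 2476 and 2830 CPM. H2-D1 was at 703 and 834 CPM against 1103 and 1168 CPM. The nonclassical H2-T23, ligand of the receptors that Klrc genes encode, had the lowest fold of the list, at 51.8 and 69.9 CPM against 119 and 138 CPM (log2 fold change −1.07, SE 0.67). Reads of these paralogs can be split between them. The peptide transporter subunit Tap1 was at 53.5 and 60.2 CPM against 103 and 95.1 CPM, and the immunoproteasome subunit Psmb9 at 46.9 and 54.0 CPM against 81.1 and 97.4 CPM.

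**Figure D3:**
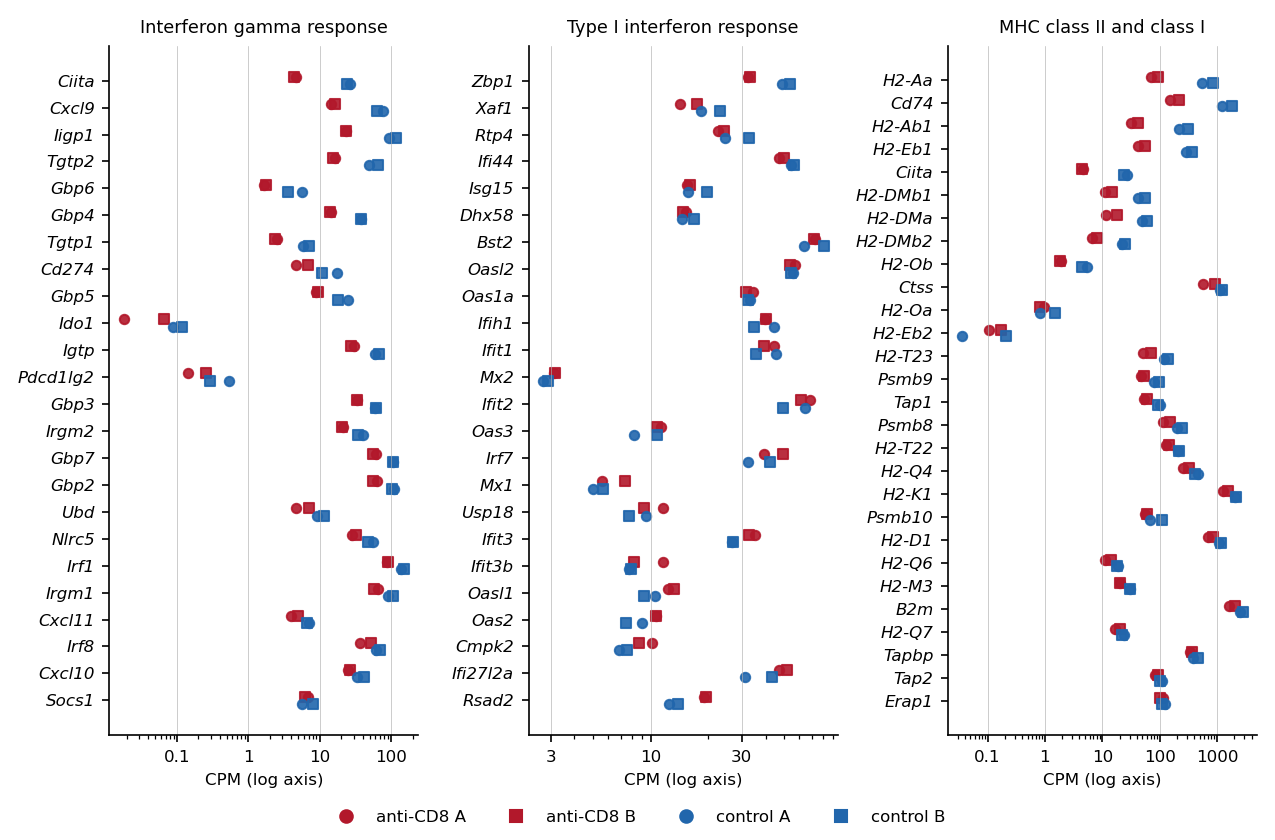
CPM on a log axis for the genes of the IFN-γ, type I interferon, MHC class II and MHC class I lists, in anti-CD8 libraries A and B (red circle and square, upper in each row) and control libraries A and B (blue circle and square, lower), ordered by log2 fold change. Red lies left of blue in 23 of 24 IFN-γ genes, in 10 of 12 MHC class II and 15 of 16 MHC class I genes, and in 4 of 24 type I interferon genes. Over all tested genes both anti-CD8 libraries were lower in 19.1%.

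Low interferon and MHC class II levels were not particular to the anti-CD8 tumors. The IFN-γ list summed to 453 CPM in anti-CTLA-4 library B and to 621 CPM in APG-157 library B, beside the 557 and 565 CPM of the anti-CD8 libraries. The MHC class II list summed to 895 and 1391 CPM with anti-CD8 against 3523 and 4750 CPM in control, while anti-CTLA-4 library B had 913 CPM and APG-157 library A 1002 CPM. Conversely, the tumors given anti-CD8 together with APG-157 and anti-CTLA-4 had little CD8 RNA but 1313 and 1791 CPM for the IFN-γ list and 2834 and 4276 CPM for MHC class II. No test of these differences was made, since the groups differ in drug as well.

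**Figure D4:**
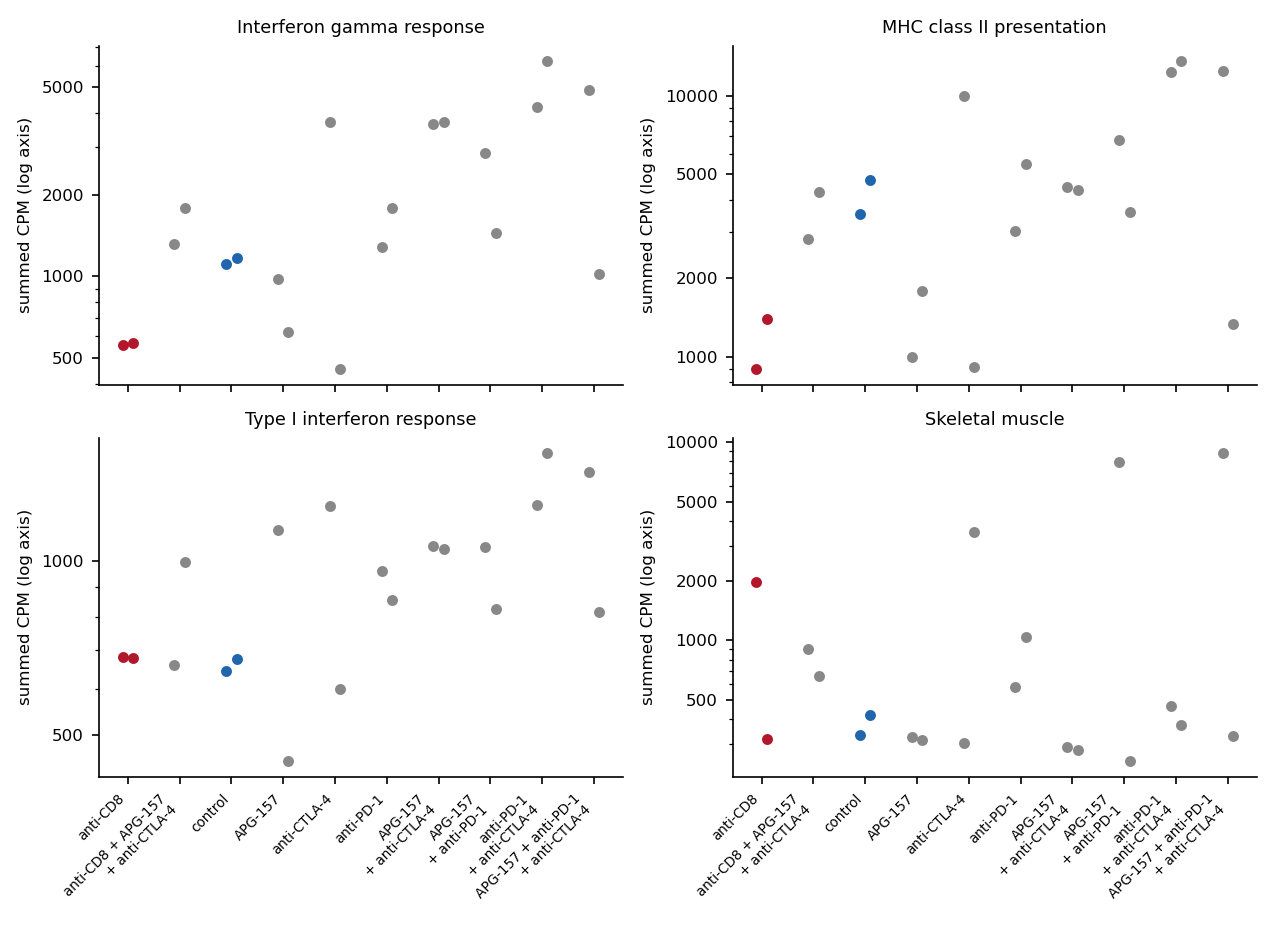
Summed CPM on log axes for 4 gene lists in the 20 libraries, by treatment group with library A left of library B; anti-CD8 is red, control blue and the other groups grey. The IFN-γ sums of the anti-CD8 libraries, 557 and 565 CPM, are below both control libraries, and 1 of the 16 other libraries lies lower. The skeletal muscle panel shows 1974 CPM in anti-CD8 library A and 316 CPM in library B.

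B cell genes and some chemokines that gather lymphocytes were also lower. In the B cell and plasma cell list 21 of 23 tested members had a negative log2 fold change (median −1.04), 15 did not overlap with anti-CD8 lower (19.1% over all genes), and 3 had an unadjusted p under 0.05 in edgeR (0.869% over all genes). Ighm, the IgM heavy chain, was at 35.2 and 44.6 CPM with anti-CD8, against 91.4 and 101 CPM in control (log2 fold change −1.27, SE 0.48, unadjusted p = 0.021 in edgeR). Ighd, the IgD chain of naive B cells, was at 0.395 and 0.685 CPM against 1.87 and 2.53 CPM (log2 fold change −2.02, SE 0.85, unadjusted p = 0.033 in edgeR). The receptor subunit Cd79b was at 0.538 and 0.497 CPM against 1.53 and 1.57 CPM, and Cd22 at 0.484 and 0.712 CPM against 1.51 and 2.08 CPM. The third gene, Iglc2, had 0 counts in both anti-CD8 libraries and was at or below 0.292 CPM in control. The list of T cell chemoattractants and receptors had 14 negative and 5 positive members of 19, with a median of −0.55. Both anti-CD8 libraries were lower in 10 of them (19.1% over all genes) and higher in 1 (12.9% over all genes). The list summed to 1356 and 1321 CPM with anti-CD8, against 1496 and 1442 CPM in control. Cxcl13, the chemokine of B cell follicles, was at 0.144 and 0.887 CPM with anti-CD8, against 9.41 and 5.11 CPM in control (log2 fold change −3.79, SE 1.69, unadjusted p = 0.045 in edgeR). Cxcl16, the ligand of CXCR6, was at 62.1 and 103 CPM against 143 and 168 CPM, and Ccl8 at 14.9 and 18.6 CPM against 43.7 and 118 CPM.

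The macrophage list was split, with 17 negative and 13 positive log2 fold changes and a median of −0.12. Both anti-CD8 libraries were lower in 12 of its 30 members (19.1% over all genes) and higher in 5 (12.9% over all genes), and the list summed to 4008 and 5049 CPM with anti-CD8, against 5661 and 6305 CPM in control. The complement genes C1qa (456 and 700 CPM with anti-CD8, against 870 and 1019 CPM in control), C1qb (350 and 580 CPM against 692 and 862 CPM) and C1qc (348 and 550 CPM against 691 and 823 CPM) were lower in both libraries. Apoe was at 76.3 and 183 CPM against 217 and 687 CPM, and Lyve1, a hyaluronan receptor of lymphatic vessels and some macrophages, was higher at 72.5 and 39.6 CPM against 21.7 and 22.4 CPM. Outside the lists, the lower genes at an unadjusted p under 0.05 included Fcgr4, an activating Fc receptor (8.95 and 11.8 CPM against 31.8 and 56.8 CPM, log2 fold change −2.09), and Slamf8, an IFN-γ-inducible receptor of macrophages (3.41 and 5.39 CPM against 19.9 and 22.2 CPM, log2 fold change −2.26). Klra2 (log2 fold change −1.76), Tmem176b (−1.56), Tmem176a (−1.48), Siglece (−1.34) and Sirpb1c (−1.31) were lower as well. Higher at that threshold were Slfn4, a schlafen gene of myeloid cells (17.0 and 25.6 CPM with anti-CD8, against 6.41 and 7.51 CPM in control, log2 fold change 1.62, SE 0.55, unadjusted p = 0.012 in edgeR), and Cd5l, a secreted macrophage protein (3.91 and 0.940 CPM against 0.180 and 0.156 CPM, log2 fold change 3.83, SE 1.57, unadjusted p = 0.030 in edgeR). The dendritic cell list had 13 negative and 7 positive members (median −0.10), 7 lower and 2 higher in both libraries. The neutrophil list had 8 negative and 6 positive (median −0.74), 2 lower and 5 higher in both. Over all genes 19.1% were lower and 12.9% higher in both. Neutrophil members lower at an unadjusted p under 0.05 in edgeR numbered 2 (0.869% over all genes). Neutrophil sums were 254 and 238 CPM with anti-CD8, against 215 and 192 CPM in control.

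The lowest unadjusted p of the comparison belonged to Tmem255a, a membrane protein gene, at 1.56 and 2.06 CPM with anti-CD8, against 5.75 and 6.18 CPM in control (log2 fold change −1.72, SE 0.38, unadjusted p = 0.00055 in edgeR). Its adjusted p in DESeq2 was 0.0162, with a fold below the minimum. Growth factor response genes followed: Egr1 was at 73.6 and 80.4 CPM against 104 and 166 CPM (log2 fold change −0.81, SE 0.20, unadjusted p = 0.0013 in edgeR) and Egr2 at 5.02 and 6.96 CPM against 13.0 and 14.3 CPM (log2 fold change −1.19, SE 0.32, unadjusted p = 0.0029 in edgeR). The AP-1 subunit Junb was at 77.7 and 88.3 CPM against 105 and 121 CPM. Of the 19 immediate early genes 15 were negative, with a median of −0.21, and both anti-CD8 libraries were lower in 9 (19.1% over all genes) and higher in 0. Its members with an unadjusted p under 0.05 in edgeR were Egr1, Egr2 and Junb (0.869% over all genes). The inducible chaperones Hspa1a (2.39 and 3.22 CPM against 19.1 and 6.55 CPM) and Hspa1b (8.00 and 10.4 CPM against 34.1 and 17.7 CPM), near-identical genes, had unadjusted p = 0.020 and 0.014 in edgeR, in a list with a median of −0.02. Immediate early and heat shock RNA also moves with the handling of tissue, and its part here was not tested.

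Among other genes at an unadjusted p under 0.05, Col10a1, a collagen of growth cartilage, was at 21.9 and 43.5 CPM with anti-CD8, against 238 and 104 CPM in control (log2 fold change −2.39, SE 1.08, unadjusted p = 0.048 in edgeR). Col5a3, a fibrillar collagen chain, was at 249 and 206 CPM against 137 and 141 CPM (log2 fold change 0.71, SE 0.23, unadjusted p = 0.0095 in edgeR), and the deacetylase Hdac9 at 11.9 and 11.0 CPM against 7.88 and 5.93 CPM (log2 fold change 0.73, SE 0.24, unadjusted p = 0.0099 in edgeR). Crym, a thyroid hormone-binding protein, was at 0.162 and 0.712 CPM against 3.70 and 1.91 CPM. The 30 fibroblast and matrix genes had a median of 0.09 and 24 proliferation genes one of 0.20, of which 23 were positive and 14 higher in both libraries (12.9% over all genes). The 13 mitochondrially encoded genes were all negative with a median of −0.49, both anti-CD8 libraries being lower in 11 (19.1% over all genes). They summed to 25010 and 26030 CPM, the lowest of the 20 libraries, against 34000 and 38050 CPM in control, and mt-Co1 was at 5489 and 5531 CPM against 8500 and 8102 CPM. Whether this difference in RNA composition touches other genes was not tested.

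Muscle genes separated the libraries rather than the treatments. Of 36 members 35 had a positive log2 fold change, with a median of 2.76, but both anti-CD8 libraries were higher in only 1 (12.9% over all genes). Without anti-CD8 library A the median was −1.22. Acta1, the skeletal actin, was at 283 CPM in anti-CD8 library A and 5.82 CPM in library B, against 10.3 and 22.1 CPM in control. Of the 8 genes DESeq2 called, Myl3 (15 and 0 counts with anti-CD8, 0 in control) and Igfn1 (64 and 1 counts, 0 in control) are muscle genes carried by that library. Gm45837 rested on control library B, with 475 counts there and 0 in the other 3. The gene models 1700028P14Rik and A530020G20Rik, and Igfbp2, had at most 1 count in any of the 4 libraries. Gm14288, a zinc finger gene model with close copies among which reads can be split, had 0 counts in both anti-CD8 libraries and 888 and 362 in control.

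The genes of 11 proteins that the study blotted in its depletion experiment were read here as RNA. Cd274, which encodes PD-L1, the IFN-γ-induced ligand of PD-1, was at 4.59 and 6.85 CPM with anti-CD8, against 17.7 and 10.7 CPM in control (log2 fold change −1.31, SE 0.99, unadjusted p = 0.21 in edgeR). Besides Irf1, given above, Il1b was lower in both libraries, at 2.23 and 2.53 CPM against 6.43 and 3.87 CPM, and so by a small margin was the autophagy gene Map1lc3b, at 110 and 112 CPM against 122 and 129 CPM. The adhesion gene Cdh1 was higher in both, at 4.76 and 9.03 CPM against 3.52 and 2.63 CPM (log2 fold change 1.17, SE 1.10). Stat3 (log2 fold change −0.09), Nfkb1 (0.06), Rela (0.02), Nfkbia (−0.29), Atg7 (0.01) and Becn1 (−0.03) overlapped between the groups. Of the 11 genes, 0 had an unadjusted p under 0.05 in edgeR.

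**Figure D5:**
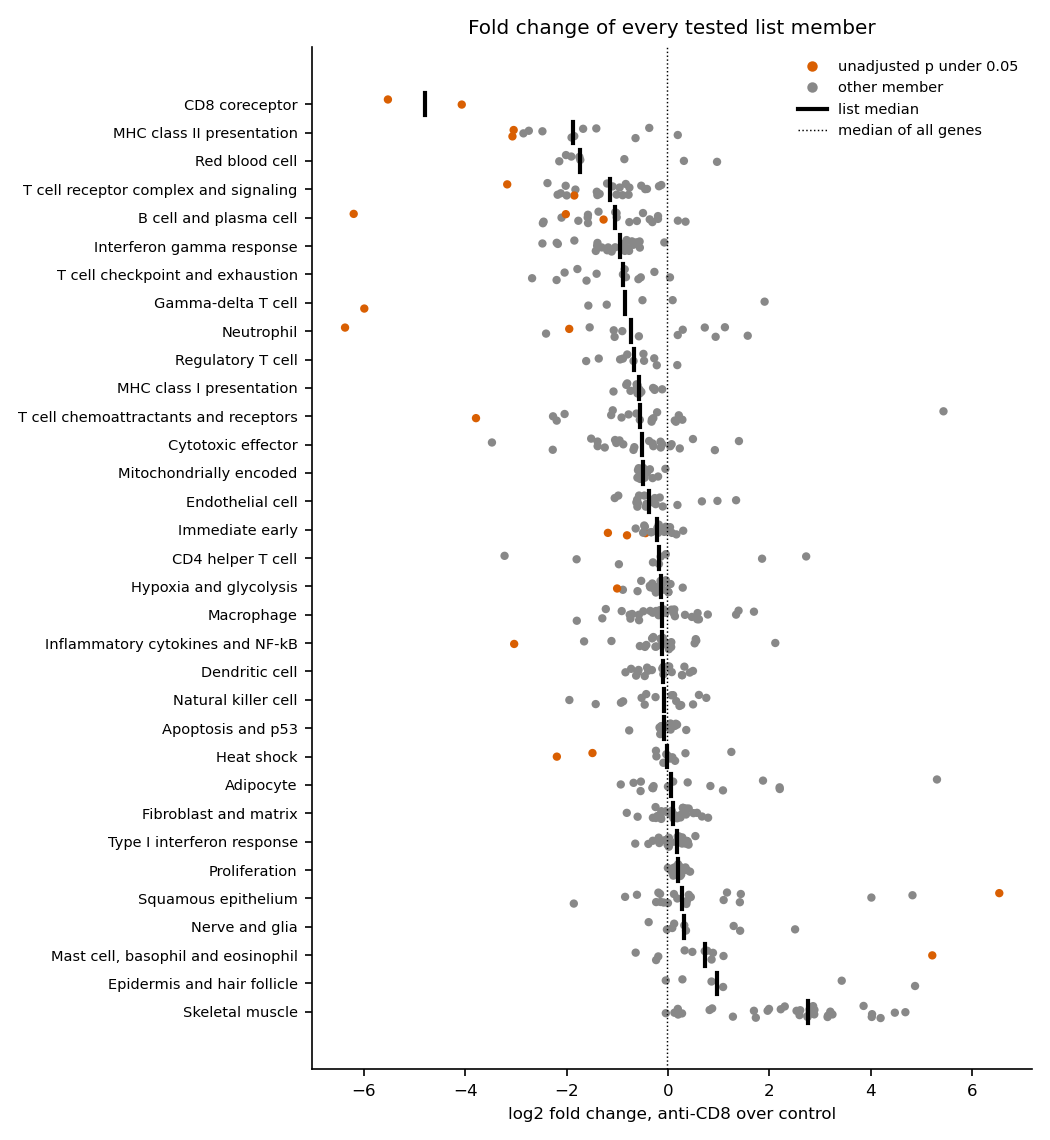
Log2 fold change, anti-CD8 over control, of every tested member of the gene lists, ordered by list median (black bar); orange points have an unadjusted p under 0.05 and the dotted line is the median of all 19567 genes, −0.02. The CD8 coreceptor, MHC class II, T cell receptor, B cell and IFN-γ lists lie to the left, type I interferon is centred near 0 with a median of 0.17, and skeletal muscle, set by 1 library, lies to the right at 2.76.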

How the data were processed

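SCCVII tumor RNA was sequenced from mRNA libraries. The deposited table holds an expected count per gene: the authors trimmed reads with Trimmomatic 0.39, estimated transcript abundance with Salmon on GRCm39 and summed it to genes, without scaling for depth. On the Salmon release the sources differ: 1.5.0 in the notes to GEO, another patch release in the methods. Of 54309 genes, 51484 had a symbol. A table of log2 values made by the authors before deposit was not used. Expected counts were rounded. Low genes were removed with filterByExpr, given the 10 groups (a count of 10, a total of 15). Libraries were scaled by TMM. A single quasi-likelihood model of edgeR 4.0.16 (limma 3.58.1, R 4.3.3) covered the 20 libraries, leaving 10 residual degrees of freedom. SE is the log2 fold change over the root of the F statistic. P-values were adjusted by Benjamini-Hochberg over all 19567 genes. DESeq2 1.42.0 was an alternative. Gene IDs were matched to symbols through a reference table, and no coordinates are given except for RefSeq promoters, which are on an older build. Figures used matplotlib 3.10.9 on Python 3.11.15, and intervals scipy 1.17.1.

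The comparison, gene lists and rule for naming genes were chosen with earlier results of these data known, so no list is independent evidence. From most lists the rule named the 3 members with the highest level, the 3 with the largest fold change at a mean of at least 0.5 CPM and those at an unadjusted p under 0.05, and outside the lists the 15 largest fold changes in each direction at that p, with groups apart and a mean of at least 1 CPM. A selection of these is described. Of 636 list entries 634 were matched, and a few withheld genes are not reported here. Alternatives were other fold minimums, RLE scaling, other low-count filters, a replicate block, a muscle covariate, fits to 4 libraries, and leaving out libraries in turn. The tests were also run on simulated counts that had the same biological coefficient of variation in all genes and groups. This did not check them under the unequal spread of the real groups. Depth limits genes of a few counts, such as Ifng.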

Additional observations from a re-analysis of the deposited data

How the results depend on the processing

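The number of called genes was 0 in edgeR under a fold minimum of 1 or none, RLE scaling, either other low-count filter, the muscle covariate and the fit that dropped replicate B of the 3-agent group given anti-CD8. It was 8 with DESeq2 on 20 libraries, and on the 4 compared libraries alone 11 with edgeR and 38 with DESeq2. Leaving out each library in turn gave 0 to 1 calls, the 1 being Pde2a without control replicate A. The log2 fold change of Cd8a passed the threshold at −5.53 in DESeq2, −5.52 in edgeR on the 4 libraries and −5.53 in DESeq2 on these, and that of Cd8b1 at −4.07 in the last; leaving out libraries gave −5.62 to −5.39 and −4.59 to −3.63. The cause was not tested. The difference in CD8 share, −58.6 points, was −53.7 to −63.4 points with a library left out, −38.8 from Cd8b1 alone and, against Cd3e in place of Cd4, a choice made after seeing the data, −40.3 from Cd8a.

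With a replicate block for the letters A and B, 0 genes were called by edgeR and 253 had an unadjusted p under 0.05. The A minus B deviations of the anti-CD8 and control groups correlated at 0.11, and at a median of 0.02 over 45 pairs of groups, so the letters are not known to pair libraries.

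Of 136 named genes, 114 kept their sign under every alternative fit that gave them a value (13 for most, 12 for Csf2 and 11 for Igfn1). The signs of the others turned with a library left out, with these lowest and highest log2 fold changes: Acta1 (−1.45 to 4.13; −0.17 with the muscle covariate), Atg7 (−0.0071 to 0.072), Becn1 (−0.16 to 0.14), Ccl5 (−0.85 to 0.15), Eomes (−0.73 to 0.93), Gzmb (−0.12 to 0.95), Gzmd (−0.88 to 3.48), Gzme (−0.93 to 4.79), Gzmf (−2.00 to 3.76), Gzmg (−1.32 to 4.04), Gzmm (−0.38 to 0.79), Isg15 (−0.30 to 0.011), Myl3 (0.00 to 6.89), Ncr1 (−0.23 to 1.09), Nfkb1 (−0.080 to 0.26), Nfkbia (−0.56 to 0.088), Prf1 (−0.97 to 0.60), Stat3 (−0.21 to 0.095), Tcf7 (−0.55 to 0.15), Thy1 (−0.64 to 0.72), Trdc (−0.34 to 0.58) and Xcl1 (−0.52 to 0.43). Across the alternatives the list medians ranged over −1.08 to −0.84 for IFN-γ, −2.17 to −1.60 for MHC class II, −1.56 to −0.89 for the T cell receptor and 0.11 to 0.20 for type I interferon. Genes such as Ifng and Gzmk rest on a few counts, where depth is the limit.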
